A study of Homo sapiens with 6 samples.

Results

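The genes described here are the 3 TET dioxygenases (TET1, TET2, TET3), the 3 DNA methyltransferases (DNMT1, DNMT3A, DNMT3B) and UHRF1, chosen by gene symbol as the core machinery that places and removes cytosine methylation. All 7 were found among the 20030 genes of the deposited table, and all 7 passed the filter on low counts together with 12369 genes in all. They were measured by mRNA sequencing in HepG2, an established human hepatoma line. Lentivirus carried either a control hairpin (sh-ctrl, 3 libraries) or a hairpin against KIF11 (sh-KIF11, 3 libraries), so every library came from transduced cells. KIF11 encodes a mitotic kinesin that pushes spindle poles apart. The labels describe a single KIF11 hairpin arm and do not say whether the 3 libraries of an arm came from separate cultures, so the p-values measure the spread between these libraries, which may be technical. The wider study asked how loss of KIF11 relates to senescence and to the methylation of CDKN2A, and the comparison here asks which of the methylation genes differed in mRNA level.

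DNA methylation in mammals sits mostly on the cytosine of CpG dinucleotides. DNMT3A and DNMT3B place new methyl groups, whereas DNMT1 copies the pattern onto the daughter strand after replication, guided there by UHRF1, which binds hemimethylated DNA and modifies histone H3. TET enzymes oxidise 5-methylcytosine, using 2-oxoglutarate, to 5-hydroxymethylcytosine and further forms, which are lost by dilution at replication or removed by TDG and base excision repair. CDKN2A, which encodes p16 and p14, is a classic target of promoter methylation in tumours.

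In sh-KIF11 cells TET2 and DNMT3A mRNA rose, UHRF1 and DNMT1 mRNA fell, and TET1, TET3 and DNMT3B did not pass the test. TET2 moved furthest, to 1.84-fold of the control level (95% confidence interval 1.59 to 2.12). DNMT3A reached 1.20-fold, UHRF1 0.748-fold and DNMT1 0.828-fold. By edgeR's quasi-likelihood test with a Benjamini-Hochberg adjusted p under 0.05, 2 of the 7 genes were called higher, where 34.4% of all tested genes were, and 2 were called lower, where 34.7% were. With 69.1% of all tested genes called in either direction, the 4 calls among 7 are a share near the background, and the results lie in which gene moved, which way and how far. In TMM-scaled CPM, which are counts scaled to a common library size, 4 of the 7 genes did not overlap between the groups, where 71.2% of all tested genes did not. The DNMT1 call depends on how libraries are scaled. When scaled by their totals alone, its log2 fold change was -0.04 with an edgeR adjusted p of 0.454, within a range of 2.45e-08 to 0.454 over all its alternatives.

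Control libraries held 1976, 2088 and 2039 KIF11 counts, against 1448, 1478 and 1240 after knockdown (log2 fold change -0.75, edgeR adjusted p = 4.22e-15). Depth ran from 18167773 to 19583282 counts per library. In a chi-square test of counts the libraries of 1 group differed beyond counting error (statistic per degree of freedom 2.67 to 8.11). This is more than sequencing 1 library again would give by counting error alone. The test cannot tell separate cultures from repeat libraries of 1 culture. HepG2 identity was visible in 9 hepatocyte markers, all above the filter, although 8 of them were lower in sh-KIF11 libraries and their summed level was 6731 to 7292 FPKM in sh-ctrl and 2915 to 3138 in sh-KIF11. FPKM, the level in the deposited table, is the number of fragments scaled by transcript length and library size. Of 7 markers of other liver cells, the leukocyte gene PTPRC had 0 or 1 count in every library, COL1A1 and KRT7 were also left out by the low-count filter, and 4 were tested. Their summed level was 51.4 to 54.6 FPKM in sh-ctrl and 79.9 to 86.5 in sh-KIF11, and ACTA2, a smooth-muscle actin, carried the rise of the sum (28.2 FPKM ± 0.313 and 67.5 ± 2.86, SD, n = 3 each). CD68, a macrophage marker, fell from 24.4 ± 1.44 to 14.7 ± 0.794 FPKM (log2 fold change -0.90). VWF, an endothelial gene, was called 2.01-fold higher at 0.110 and 0.270 FPKM, and the endothelial gene PECAM1 was not called (log2 fold change -0.08). Every library is labelled HepG2, so each marker is read as the level of a gene in that line, not as a count of another cell type. The part of these shifts in the results below was not tested. In bulk RNA a change in all cells and a change in some of them cannot be told apart.

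Per unit of transcript length, UHRF1 and DNMT1 stood far above the other 5 genes. In sh-ctrl cells the mean FPKM was 20.5 ± 0.313 (SD, n = 3) for UHRF1 and 18.9 ± 0.493 for DNMT1. DNMT3A (5.22 ± 0.266) and DNMT3B (5.06 ± 0.558) came next and overlapped each other. TET3 (2.88 ± 0.239), TET1 (2.1 ± 0.0873) and TET2 (0.571 ± 0.108) followed without overlap. The lowest methyltransferase was thus 1.76 times the highest TET gene, and TET1 was 3.68 times TET2. In sh-KIF11 cells the order of the 7 FPKM means was the same, but UHRF1 and DNMT1 now overlapped (17.7 ± 0.911 and 17.6 ± 0.242), DNMT3A was clear of DNMT3B (7.04 ± 0.274 and 5.90 ± 0.121), and the gap from TET1 to TET2 had narrowed to 1.84 times.

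**Figure D1:**
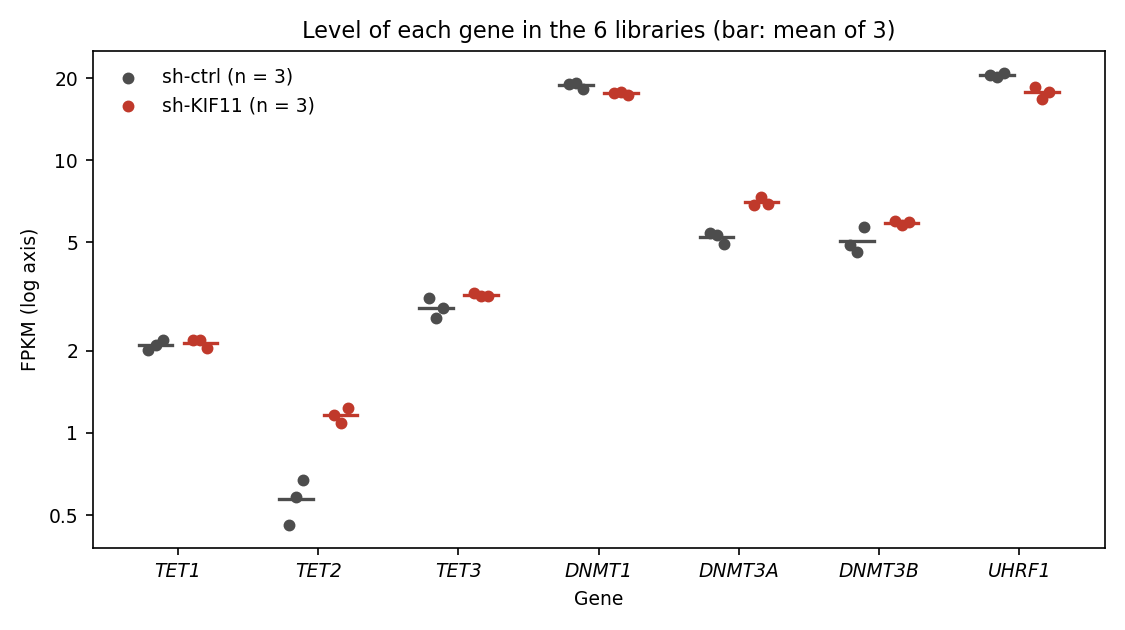
FPKM on a log axis for the 7 genes in each of 3 sh-ctrl (grey) and 3 sh-KIF11 (red) libraries, with a bar at the mean of 3. TET2 in sh-KIF11 libraries (1.09 to 1.23 FPKM) lies above every sh-ctrl library (0.459 to 0.674), while the TET1 points of the groups overlap.

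TET2 is the TET gene that lacks its own CXXC DNA-binding domain and is frequently mutated in myeloid disease. The annotated gene lies at chr4:105145875-105279816 on the plus strand (GRCh38, GENCODE release 29). Its counts were 155, 193 and 205 with the control hairpin and 391, 374 and 400 with the KIF11 hairpin. Every sh-KIF11 library was above every sh-ctrl library, and in FPKM the values were 0.459, 0.580 and 0.674 against 1.16, 1.09 and 1.23. The log2 fold change was 0.88 (SE 0.104, edgeR adjusted p = 9.98e-10, Benjamini-Hochberg), and 90.4% of all tested genes had a lower one. TET2 stayed called under every alternative, its log2 fold change running from 0.46 with limma on log2(FPKM + 1), a scale that compresses low levels, to 1.11 by library totals alone (adjusted p from 6.04e-17 to 0.000248). TET2 overlaps the antisense gene TET2-AS1, and whether reads were counted by strand is not given in the sources used here, so reads of the pair may be mixed.

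The stretch upstream of the TET2 start is shown because TET2 had the largest change of the 7, with its CpG dinucleotides in capitals. It covers 150 bases at chr4:105145725-105145874 (plus strand, RefSeq on GRCh38.p14) and ends at the base before the annotated gene.

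TET2 upstream: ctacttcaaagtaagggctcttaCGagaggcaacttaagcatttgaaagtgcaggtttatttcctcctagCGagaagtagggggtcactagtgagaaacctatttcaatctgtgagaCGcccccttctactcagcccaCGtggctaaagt

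This stretch holds 4 CpG. The whole window of 300 bases around the same start holds 13, near the median of 14 over 35116 RefSeq promoter windows, and the window of a second TET2 start holds 35, above the upper quartile of 28. The study also designed a quantitative PCR pair for TET2, shown because its amplicon fixes which exon that assay reads.

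TET2 forward primer: ataccctgtatgaagggaagcc

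TET2 reverse primer: cttaccccgaagttacgtctttc

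The pair matched 6 TET2 transcripts and no other gene, with an amplicon of 197 bases in coding exon 3 at chr4:105234129-105234325. The pairs for TET1 and TET3 gave amplicons of 141 and 169 bases, in coding exon 2 and coding exon 3, and each matched its own gene alone. The sequencing counts cover whole genes, so they are not restricted to these exons.

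TET1, which carries a CXXC domain and acts in early development, drew 642, 683 and 655 counts in control libraries, and 709, 748 and 658 in knockdown libraries. The groups overlapped in FPKM (2.01 to 2.19 and 2.05 to 2.19). Its log2 fold change was -0.10 (SE 0.0728, edgeR adjusted p = 0.207), and its sign turned positive by library totals (0.13) and with limma on FPKM (0.02 and 0.03). No direction can be given for TET1.

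TET3, known for oxidising the paternal genome in the zygote, reached 1036, 881 and 893 counts with the control hairpin and 1066, 1073 and 1039 with the other, the most of the 3 TET genes. In FPKM every sh-KIF11 library (3.18 to 3.27) was above every sh-ctrl library (2.64 to 3.12), whereas the TMM-scaled CPM overlapped. The log2 fold change of TET3 was -0.02 (SE 0.0669, edgeR adjusted p = 0.807). By library totals alone it was 0.21 and called (edgeR adjusted p = 0.00488, with a range of 0.00488 to 0.940 over its alternatives), so the direction of TET3 flips with the scaling as well. A shift of the whole distribution goes with that setting, since over all tested genes the median change (log2) was 0.24 by library totals and 0.00 with TMM, the trimmed mean of M values used for the main results.

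Among the writers, DNMT3A was the one that rose. Control libraries gave 1219, 1219 and 1029 counts, and knockdown libraries, all of them higher, 1538, 1708 and 1506. The log2 fold change was 0.26 (SE 0.0591, edgeR adjusted p = 0.000185), and DNMT3A stayed called under every alternative, between 0.21 and 0.49. The change was small beside that of other genes, as 59.7% of all tested genes moved further from 0.

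DNMT3B, the partner de novo enzyme that methylates pericentromeric repeats, was counted 767, 792 and 821 times without knockdown and 995, 959 and 901 times with it. The raw counts do not overlap, but the TMM-scaled CPM do, at 45.2 ± 3.03 and 47.2 ± 2.09 (SD, n = 3 each). The log2 fold change was 0.06 (SE 0.0691, edgeR adjusted p = 0.418). DNMT3B was called higher by library totals (0.29, edgeR adjusted p = 0.000207) and with limma on log2(FPKM + 1) (0.19, adjusted p = 0.0384), its adjusted p over all alternatives running from 0.000207 to 0.799.

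DNMT1, the maintenance enzyme, was the most counted of the 7 genes, with 4253, 4394 and 3839 in control and 3972, 4131 and 3745 in knockdown libraries. The raw counts overlap, whereas the FPKM do not, at 18.3 to 19.2 in sh-ctrl and 17.3 to 17.8 in sh-KIF11. The log2 fold change was -0.27 (SE 0.0491, edgeR adjusted p = 5.48e-06). With limma on log2(FPKM + 1) it was -0.10 and not called (adjusted p = 0.0705), so the sign was kept but the call was not, as by library totals above. DNMT1 shares its strand with the overlapping gene S1PR2, so part of the reads could belong to either.

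UHRF1 fell by 0.42 on the log2 scale (SE 0.0512, edgeR adjusted p = 1.86e-09). Its control counts of 2819, 2824 and 2737 compare with 2516, 2366 and 2305 after knockdown, with every sh-KIF11 library below every sh-ctrl library. UHRF1 stayed called lower under every alternative, the smallest change being -0.19 by library totals. Of the 7 genes, UHRF1, TET2 and DNMT3A were those whose call held under all alternatives.

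**Figure D2:**
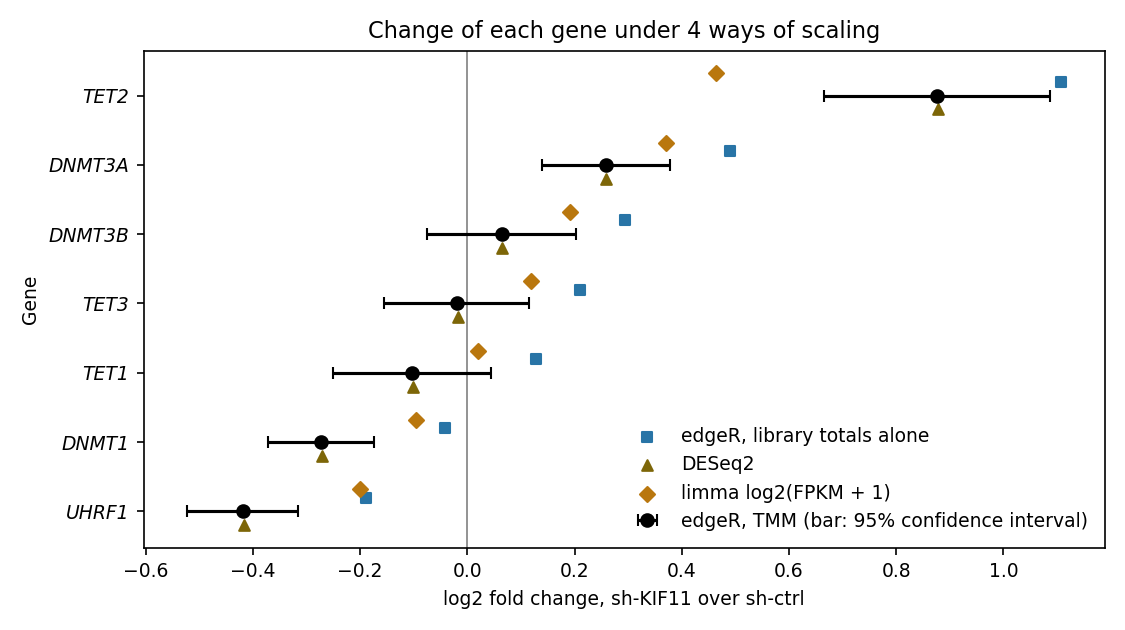
log2 fold change of sh-KIF11 over sh-ctrl for the 7 genes, with edgeR and TMM (circles, bars are 95% confidence intervals), edgeR with library totals alone (squares), DESeq2 (triangles) and limma on log2(FPKM + 1) (diamonds). TET2 and DNMT3A lie right of 0 and UHRF1 and DNMT1 left of 0 under all 4, whereas the points of TET1 and TET3 fall on both sides.

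Ratios between genes within a library do not depend on the scaling of that library. TET2 made up 8.21%, 10.9% and 11.7% of the summed TET FPKM with the control hairpin, and 17.6%, 16.9% and 19.1% with the KIF11 hairpin. The share of TET1 was 37.8% ± 1.73 and 32.9% ± 1.10, and that of TET3 was 51.9% ± 3.41 and 49.3% ± 0.0921 (SD, n = 3 each). TET3 thus remained the largest part of the TET mRNA pool in both groups, with TET2 the smallest.

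Within the methyltransferases DNMT1 held a smaller share of the sum after knockdown, and DNMT3A a larger one. DNMT1 made up 64.8%, 66.0% and 63.3% of the summed DNMT FPKM in control libraries and 57.8%, 57.5% and 57.4% after knockdown. DNMT3A made up 18.5%, 18.2% and 17.0% in control, and 22.5%, 23.8% and 22.9% after knockdown. The groups did not overlap for either share, with an exact two-sided permutation p of 0.10, the smallest that 3 against 3 libraries can give. The share of DNMT3B overlapped between the groups (17.4% ± 2.03 and 19.4% ± 0.585, exact permutation p = 0.30).

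The summed DNMT FPKM was 5.26 ± 0.223 times the summed TET FPKM in sh-ctrl and 4.69 ± 0.0859 times in sh-KIF11 (SD, n = 3 each). As a log2 ratio of TET to DNMT, the control libraries were at -2.39, -2.45 and -2.33 and the knockdown libraries at -2.21, -2.26 and -2.22, a difference of 0.16 with no overlap (exact two-sided permutation p = 0.10). The sign rests on DNMT1, since without it the difference was -0.10, and most of the size rests on TET2, since without it the difference was 0.0377. Without TET1 it was 0.28.

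**Figure D3:**
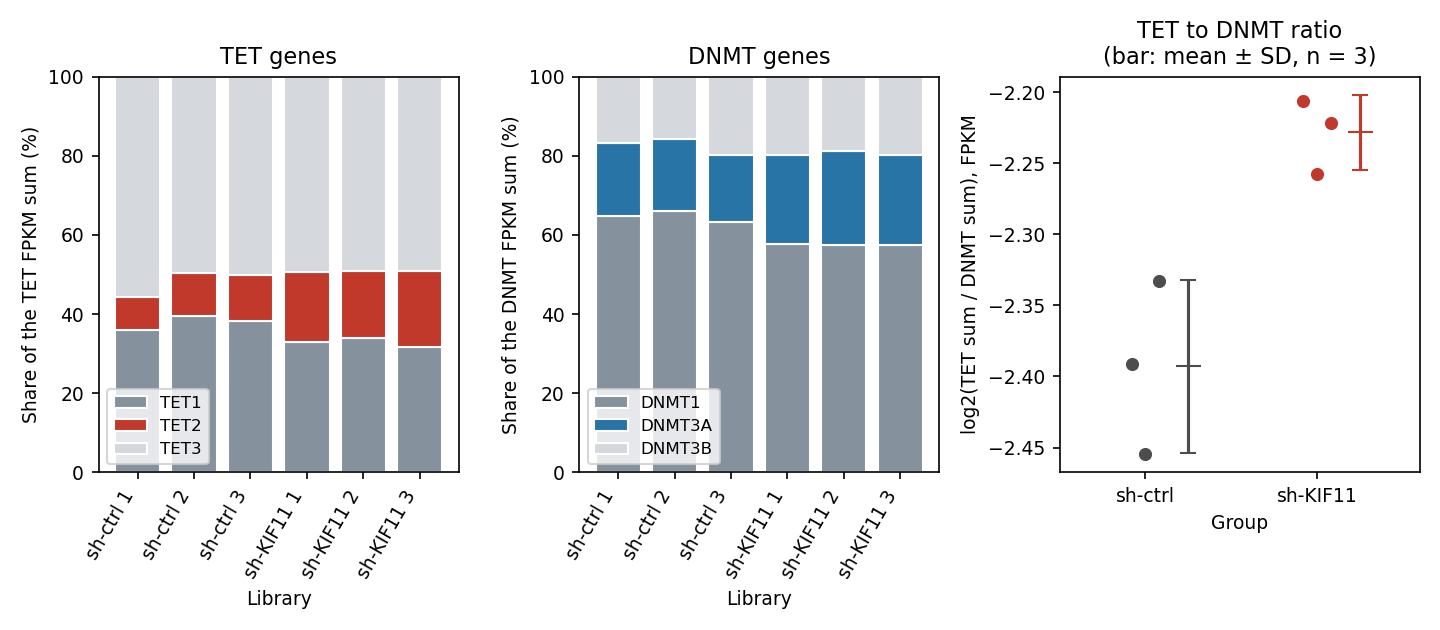
Stacked bars give the share of each gene in the summed TET FPKM (left) and the summed DNMT FPKM (middle) of every library, and points (right) the log2 ratio of the sums with mean ± SD (n = 3). TET2 takes 8.21% to 11.7% of the TET sum in sh-ctrl and 16.9% to 19.1% in sh-KIF11, and DNMT1 takes at least 63.3% and at most 57.8% of the DNMT sum in these groups.

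The 7 genes form 21 pairs, and the log2 ratio of counts within a library was compared between the groups for each. In 18 pairs the ratios of the groups did not overlap, among them all 6 pairs with TET2. Over every pair of tested genes 70.5% did not overlap, so the count of 18 is not read as particular to these genes. The smallest exact permutation p was 0.10 and the smallest Benjamini-Hochberg adjusted value over the 21 pairs was 0.117, a limit set by the number of libraries. The widest difference was between TET2 and UHRF1, where the log2 ratio went from -3.93 ± 0.228 to -2.62 ± 0.0857 (SD, n = 3 each), a difference of 1.30. The log2 ratio of DNMT1 to DNMT3A went from 1.85 ± 0.0483 to 1.32 ± 0.0475, a difference of -0.53. The 3 pairs that overlapped were TET1 with TET3, TET3 with DNMT3B, and DNMT3A with DNMT3B.

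DNMT1 and UHRF1 are known to be transcribed with the replication genes, so they were set beside 24 S-phase genes. Of these, 23 were called lower (95.8%, against 34.7% of all tested genes), none higher and 1 (RFC3) not, with a median log2 fold change of -0.46, where that of all tested genes was 0.00. By library totals alone 17 were called lower and 1, RFC3, higher, where 2373 of all 12369 tested genes were called lower and 6621 higher. The licensing factor CDT1 (-0.78), the ribonucleotide reductase subunit RRM2 (-0.74) and the transcription factor E2F1 (-0.71) fell furthest. UHRF1 lay inside this list, with 15 of the 24 genes falling further. DNMT1 lay near its upper end, with 20 falling further, and TET2, TET3, DNMT3A and DNMT3B lay above all 24.

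The same can be seen within libraries. Relative to the mean log2 count of the 24 S-phase genes, UHRF1 stood 0.33 ± 0.0259 above them in control libraries and 0.39 ± 0.0719 after knockdown (SD, n = 3 each), which overlap (exact permutation p = 0.40). DNMT1 was at 0.90 ± 0.0524 and 1.11 ± 0.0143, 0.20 higher relative to those genes, with no overlap (exact permutation p = 0.10, the smallest possible). TET2 was 1.36 and DNMT3A 0.73 higher on the same scale, again without overlap and with the same permutation p of 0.10. UHRF1 was the one gene of the 7 whose level against the S-phase genes overlapped between the groups. However, 23 of these 24 reference genes were called lower themselves, so a gene that fell less than they did rises on this scale. TET1 and TET3, which were not called, also did not overlap here. The share over all tested genes was not computed, so the lack of overlap is not read as particular to these genes.

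E2F factors drive many S-phase genes through a short promoter motif. The letters TTTCCCGC, TTTCGCGC, TTTGCCGC and TTTGGCGC were searched on both strands in RefSeq promoter windows of 300 bases (250 before and 50 after each start, GRCh38.p14). A match was found in 3.31% of 35116 windows and for 3.99% of 27305 genes. Of the 24 S-phase genes 22 had a window and 13 of those (59.1%) a match. All 7 methylation genes had a window, and DNMT1 and UHRF1 held a match. Among the S-phase genes, CDT1 and E2F1 were with the 13 that held a match. RRM2 was not, and RFC3, which was not called, was. Whether a match goes with a fall was not tested. The matched sites of DNMT1 and UHRF1 are shown with the motif in capitals and 10 flanking bases on each side, as the only matches among the 7 genes.

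DNMT1 at chr19:10194938-10194965, minus strand: atcggtttccGCGCGAAAagccggggcg

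UHRF1, first window, chr19:4909477-4909504, plus strand: ccgagttttcGCGGGAAAaaaatcagag

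UHRF1, second window, chr19:4909974-4910001, plus strand: ccgagcccgaTTTCGCGCgccctgagtt

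The DNMT1 match and the first UHRF1 match are read on the opposite strand of the gene and start 2 and 14 bases before the annotated start. The second UHRF1 match lies 160 bases before another start. No window of TET1, TET2, TET3, DNMT3A or DNMT3B held these letters, and DNMT3B was represented by an internal start alone. A match describes letters, and binding was not measured here.

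A list of partners of the maintenance enzymes, which also took in the DNMT relatives TRDMT1 and DNMT3L, held 10 genes. Of these 8 were tested, with 2 called higher (CDCA7 and TRDMT1) and 4 lower (median log2 fold change -0.15). The shares, 25% higher and 50% lower, are of 8 genes and stand beside 34.4% and 34.7% of all tested genes. Library totals alone made this 3 higher and 2 lower, where all tested genes went to 6621 higher and 2373 lower. CDCA7, which activates the remodeller HELLS and is mutated with it in the ICF syndrome of lost methylation, went from 263, 215 and 208 control counts to 750, 777 and 643, which is 1.46 on the log2 scale (SE 0.0893, edgeR adjusted p = 3.51e-18). HELLS itself, named after its values were seen, went the other way, at -0.39 (edgeR adjusted p = 7.42e-08). LIG1, the replicative DNA ligase whose methylated form binds UHRF1, fell by 0.41. CDCA7, HELLS and LIG1 all held the E2F motif letters, as did PCNA and PCLAF. These are 5 of the 9 listed genes with a promoter window (55.6%, against 3.99% of all genes with one). HELLS, LIG1 and PCNA were called lower, CDCA7 higher, and PCLAF was not called. TRDMT1, a DNMT homologue that methylates transfer RNA, rose by 0.94, and DNMT3L, the catalytically inactive cofactor of the de novo enzymes, was listed at 0 FPKM in both groups.

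Of 9 genes that serve the TET reaction 8 were tested, with 3 called higher and 4 lower (37.5% and 50%, against 34.4% and 34.7% of all tested genes, median log2 fold change -0.11). Library totals gave 2 lower calls, where 2373 of all tested genes were called lower. Without the first sh-KIF11 library 1 gene was called higher, where 4065 of all tested genes were. IDH1 and IDH2, which produce 2-oxoglutarate, fell, at 248 and 144 FPKM for IDH1 (log2 fold change -0.96) and 77.1 and 58.6 FPKM for IDH2 (-0.66) in sh-ctrl and sh-KIF11. OGT, the O-GlcNAc transferase that binds TET proteins, rose by 0.48.

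In the excision repair that completes demethylation, 14 of 15 genes were tested, with 5 called higher and 7 lower (35.7% and 50%, against 34.4% and 34.7% of all tested genes, median log2 fold change -0.11). By library totals these became 6 and 2, a shift that all tested genes shared. NEIL1, a glycosylase, rose by 0.92 from a low level of 0.125 FPKM in sh-ctrl, and GADD45A, a stress-induced gene linked to active demethylation, rose by 0.70. SMUG1, a uracil glycosylase, fell by 0.54. TDG, which excises the oxidised cytosines that TET enzymes make, was named after its values were seen. Its control counts were 473, 485 and 491 and its knockdown counts 711, 690 and 649, a difference of 0.30 on the log2 scale (SE 0.0758, edgeR adjusted p = 0.000553).

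The methionine and folate cycles supply the methyl donor S-adenosylmethionine. Of 13 tested genes, 10 were called lower and 2 higher (76.9% and 15.4%, against 34.7% and 34.4% of all tested genes, median log2 fold change -0.34). By library totals alone the lower calls dropped to 5, while those of all tested genes dropped from 4294 to 2373. SHMT1, which feeds one-carbon units (-1.16), MAT1A, the liver form of methionine adenosyltransferase (-1.13), and BHMT, which remethylates homocysteine (-0.99), fell furthest. MAT1A and BHMT are liver-enriched genes, and 8 of the 9 hepatocyte markers were lower as well. MAT2A, the form found outside mature liver and named after its values were seen, went the other way with a log2 fold change of 0.64 (edgeR adjusted p = 9.13e-15).

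Readers of methylated CpG were called higher in 4 of 7 cases and lower in 2 (57.1% and 28.6% of a very short list, against 34.4% and 34.7% of all tested genes, median log2 fold change 0.18). Without the second sh-KIF11 library 2 were called higher, where 3960 of all tested genes were. ZBTB4 (0.76) and ZBTB38 (0.47), zinc-finger proteins that bind methylated DNA, rose, and MBD3, a NuRD subunit that binds methylated CpG poorly, fell by 0.47. Of the 6 readers with a promoter window 1, ZBTB4, held the E2F motif letters (16.7%, against 3.99% of all genes with one). H3K9 methylation is a mark tied to DNA methylation through UHRF1 and the HP1 proteins. Among 14 genes that place, bind or remove it or recruit its enzymes, 4 were called higher and 6 lower (28.6% and 42.9%, against 34.4% and 34.7% of all tested genes, median log2 fold change -0.07). Of the listed genes that remove it, KDM4A and KDM4C were called higher and KDM3A and KDM4B lower. SUV39H1, the heterochromatin methyltransferase, fell by 0.87, while SETDB2 rose by 0.71 and CBX5, which encodes HP1 alpha, by 0.62. By library totals the H3K9 calls became 7 higher and 2 lower, where all tested genes had 6621 and 2373, so no common direction can be given for that list.

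**Figure D4:**
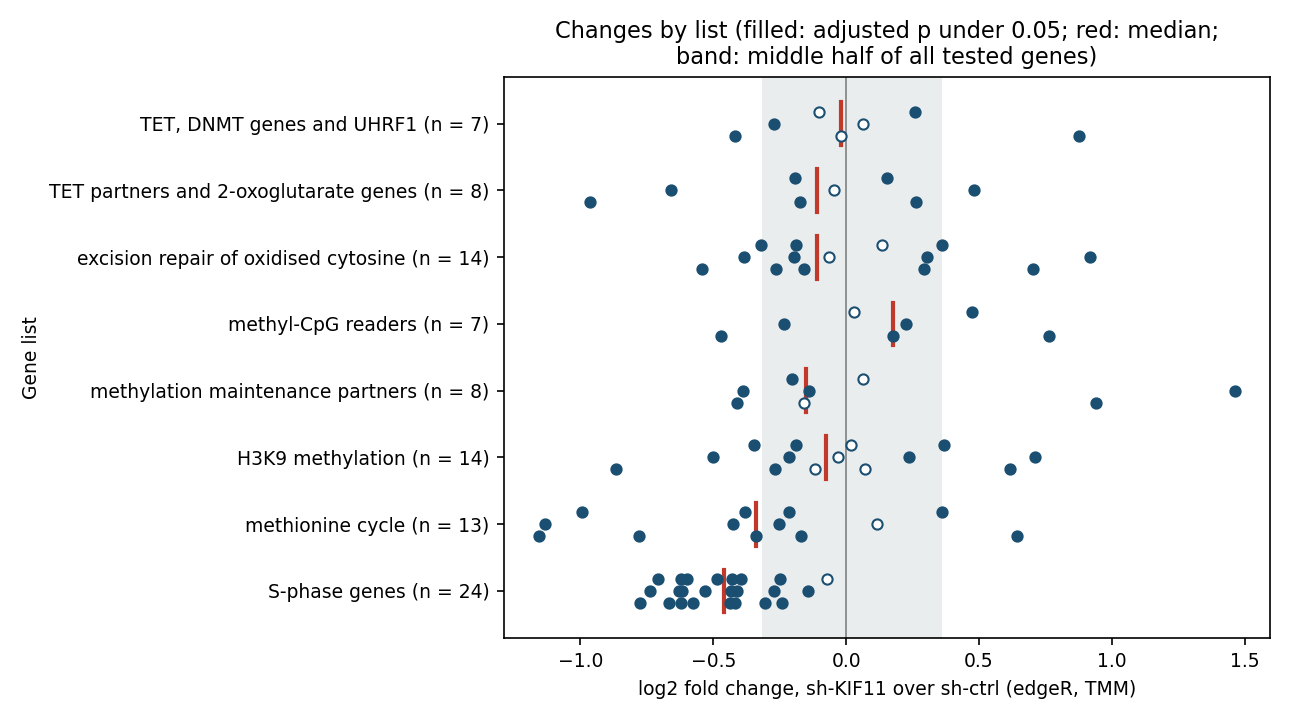
log2 fold change (edgeR, TMM) of each tested gene in the 7-gene set and in 7 lists, filled where the adjusted p was under 0.05, with the list median in red and the range between the quartiles of all tested genes as a band (-0.31 to 0.36). The S-phase genes sit left of 0 with TMM scaling, whereas the methylation genes and their partners lie on both sides of 0. By library totals 17 of the 24 S-phase genes were called lower and 1 higher, against 2373 and 6621 of all 12369 tested genes.

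Genes known as targets of promoter methylation gave few values, and methylation was not measured in these libraries. CDKN2A counts of 26, 20 and 14 in control compare with 189, 178 and 155 after knockdown, a 7.55-fold difference (log2 fold change 2.92, SE 0.20, edgeR adjusted p = 1.37e-16). The level was low in both groups, at 0.0797 ± 0.0279 and 0.706 ± 0.167 FPKM (SD, n = 3 each). In sh-ctrl 3.96% of tested genes had a lower mean FPKM, and in sh-KIF11 12.8% did. The antisense gene CDKN2B-AS1 and the protein-coding AL359922.1 overlap CDKN2A on the opposite strand, so the same limit on strand applies as for TET2. Of 10 germline genes known as silenced by DNA methylation in somatic cells, 9 had too few counts to be tested in these libraries. Among them DAZL, DDX4, MAEL, SYCP3 and CTAG1B were listed at 0 FPKM in both groups. MAGEA3, whose reads can be split with near-identical copies of its family, was the one tested, at 99, 81 and 96 control counts and 152, 130 and 141 knockdown counts (log2 fold change 0.42, SE 0.149, edgeR adjusted p = 0.0121). That call was lost without the second sh-ctrl library (adjusted p = 0.0778) or the first sh-KIF11 library (0.0588).

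Genes most like a member over the 6 libraries were found by the root mean square distance between centred log2 CPM profiles. For TET2 these were KAT14 (0.043), BLOC1S2 (0.067) and MORC3 (0.082), distances on the log2 scale. UHRF1 was closest to MRPS7 (0.014), KIAA1147 and TIMM8B, and DNMT1 to EARS2 (0.0089) and ATP2A2. DNMT3A was closest to the chromatin remodeller CHD7 (0.015), and DNMT3B to HMGA2 (0.013). TET1 was closest to RFC1 (0.023).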

How the data were processed

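One deposited table holds whole-number counts without scaling, and the other FPKM, which the authors had computed from transcript length and library size. Submitters' notes name Trimmomatic, HISAT2 2.1.0, Cufflinks 2.2.1 and HTSeq 0.9.1, and GRCh38. Annotation and strand setting of the counting are not given in the sources used here. Columns named only shRNA were taken as sh-KIF11, since the labels list no other hairpin.

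Counts were fitted in R 4.3.3 with edgeR 4.0.16 (TMM, filterByExpr, quasi-likelihood test, group as the only term), adjusting p-values over 12369 genes by Benjamini-Hochberg at 0.05. log2 CPM used a prior count of 2. Alternatives used other scalings and filters, DESeq2 1.42.0, limma 3.58.1 on log2(FPKM + 1) and log2(FPKM + 0.1), a replicate block and each library left out in turn. The procedure was tested on simulated data in which a small set of genes changed, with as many rises as falls. That simulation does not probe a shift of many genes, so it cannot decide between TMM and library totals. Single values were compared by exact permutation. Precision follows depth, 18167773 to 19583282 counts.

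Named genes are the 7 members, KIF11, CDKN2A, up to 3 genes per list with the largest called change, a mean of at least 1 CPM and no overlap, and the 3 closest profiles per member, of which some are not reported here. Members and lists were chosen with earlier results of these data known.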

Additional observations from a re-analysis of the deposited data

How the results depend on the processing

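Against 2 genes called higher and 2 lower, library totals alone gave 4 higher and 1 lower, and limma on log2(FPKM + 1) or log2(FPKM + 0.1) gave 3 higher and 1 lower. The log2 fold change of TET1 reversed to 0.13 by library totals and to 0.0198 and 0.0279 with limma at the larger and smaller pseudocount. That of TET3 reversed to 0.0593 with upper-quartile scaling, 0.21 by library totals, 0.00619 with at least 10 counts in every library, 0.119 and 0.154 with limma, and, with libraries left out in turn, ran from -0.0752 to 0.0523, the latter without the first sh-ctrl library. The cause was not tested, but upper-quartile scaling, library totals and limma on FPKM also put the median of all tested genes at 0.08 to 0.24, where it was 0.00 with TMM. By library totals 6621 of all tested genes were called higher and 2373 lower, in place of 4254 and 4294. With limma these were 5635 and 2596 on log2(FPKM + 1), and 5666 and 2597 on log2(FPKM + 0.1). The log2 ratio of summed TET to summed DNMT level, 0.16, became 0.22 as a mean of log2 FPKM, 0.28 without TET1, 0.0377 without TET2 (added after seeing the data) and reversed to -0.10 without DNMT1. With each library left out in turn it ran from 0.13 to 0.19. RLE and upper-quartile scaling, no low-count filter, the stricter filter, DESeq2 and each library left out in turn gave 2 higher and 2 lower again. Same-numbered libraries did not deviate together (correlations of 0.03, -0.02 and -0.003). This cannot decide whether the numbers pair the samples, since pairs with little shared deviation would look the same, and the labels do not say. With the replicate number as a block, edgeR called 8607 genes in place of 8548 and again 2 members higher and 2 lower, and the TET to DNMT difference was 0.16 (exact sign-flip p = 0.25, the smallest that 3 pairs allow). Of 555 log2 fold changes recomputed for 37 genes, 538 kept their direction and their side of the threshold, 9 reversed (the TET3 value by library totals also gained a call), 5 lost a call and 3 gained one in the same direction. Of 10 germline genes 9 had too few counts to test at this depth.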
